A study of Mus musculus with 6 samples.

Results

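The 10 channel genes described here were taken by name from a list of cation channels that discriminate little between ions. That list was chosen with earlier results of these data known. It holds the TRP genes Trpm2, Trpm4, Trpm6, Trpm7 and Trpv2, the ATP receptor genes P2rx1, P2rx4 and P2rx7, and the TPC genes Tpcn1 and Tpcn2. All 10 were found by symbol among the 41388 genes of the count tables. Bone marrow neutrophils from C57BL/6 mice were loaded with 250 nM DIBAC4(3), an anionic dye that accumulates in depolarized cells, and stimulated with 100 nM ionomycin, a calcium ionophore. From 2 to 4 minutes later, 20000 depolarized and 20000 polarized cells were sorted for RNA. The groups are 3 libraries of depolarized cells and 3 of polarized cells, which form 3 biological replicate pairs, named A, B and C here. Both groups carry the dye and the ionophore, no unstimulated group was analysed here, and no age, sex or number of animals was given in the sources used here.

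TRP channels of the melastatin and vanilloid groups let sodium and calcium flow down their gradients when a ligand, heat, stretch or calcium opens them, which depolarizes the plasma membrane. P2X receptors are trimeric channels opened by extracellular ATP, and TPC channels carry sodium or calcium out of endosomes and lysosomes. In neutrophils Trpm2 is known as an oxidant- and ADP-ribose-gated calcium entry route, and calcium-activated Trpm4 is known in other cells as a channel that depolarizes without passing calcium.

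Libraries held 16904969 to 20381489 counts and 15527 to 16005 detected genes. Neutrophil transcripts were abundant, with 9 of 9 neutrophil markers at a mean of 1 CPM (counts scaled to library size) or more over the 6 libraries. Fitted log2 fold changes, depolarized minus polarized, were above 0 for 2 of the 9 and below 0 for 7. Elane and Mpo were called lower at an edgeR adjusted p under 0.05, where that test called 0.321% of 9971 genes. Elane was at 0.147 and 0.104 CPM in depolarized libraries A and B. Markers of early-stage neutrophils summed to 4615 to 11780 CPM in depolarized and 11858 to 22917 CPM in polarized libraries, ranges that nearly touch. Ngp and Ltf carried most of this sum. Without them it was 339 to 746 CPM in depolarized and 795 to 1868 CPM in polarized libraries. All 10 markers were fitted below 0, and 8 were called lower by the same test. Over the 6 libraries 10 of 10 were at a mean of 1 CPM or more, and none was at 0 in all libraries. Within depolarized cells alone, Prtn3, Ctsg, Ms4a3 and Fcnb had means of 0.842, 0.0862, 0.352 and 0.469 CPM. Their polarized means were 8.92, 5.11, 9.21 and 15.8 CPM. The early granule gene Mpo was at 0.294, 0.208 and 5.86 CPM in depolarized libraries A, B and C, against 13.4, 19.8 and 145.6 CPM in the polarized ones. Polarized library C, the highest for Mpo, also had a TMM scaling factor (a correction for library composition) of 0.876 where the other 5 lay between 0.967 and 1.08. Long transcripts were also low in that library: its median log2 deviation from the gene mean was -0.16 over the 2493 longest genes (5621 bases or more) and 0.21 over the 2493 shortest.

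In the sorted libraries 7 of the 10 channel genes were expressed, with expressed taken as a mean of 1 CPM or more over the 6 libraries. These were Trpm2, Trpm7, Trpv2, P2rx1, P2rx4, Tpcn1 and Tpcn2, whereas P2rx7, Trpm4 and Trpm6 fell below. P2rx1 was under 1 CPM in depolarized library C, at 0.828 CPM. Which cells of the libraries held each transcript was not tested. Trpm2 and Trpv2 supplied most of the signal, with 45% and 39.7% of all counts on the 10 genes. On the length-corrected RPKM scale (CPM per kilobase), where levels of different genes can be set side by side, Trpv2 was first and took 54.4% of the summed level, Trpm2 took 22.6% and Tpcn2 13.3%.

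The order of levels over all 6 libraries began with Trpv2 at 36.6 ± 6.55 RPKM (SD, n = 6), followed by Trpm2 at 15.2 ± 2.95 and Tpcn2 at 8.95 ± 1.97 RPKM. Among all genes in the tables, Trpv2 ranked 976 and Trpm2 1898 by mean RPKM. Tpcn1 at 1.99 ± 0.461, P2rx4 at 1.98 ± 0.339 and Trpm7 at 1.77 ± 0.290 RPKM could not be put in order, since their ranges overlapped and Tpcn1 lay above P2rx4 in 3 of 6 libraries. Trpm2 and Tpcn2 also overlapped in range, though Trpm2 was the higher in 6 of 6 libraries. P2rx1 followed at 0.813 ± 0.261 RPKM, below Trpm7 in every library. P2rx7 came next at 0.0352 ± 0.0325 RPKM, and Trpm4 and Trpm6 were at or near 0.

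**Figure D1:**
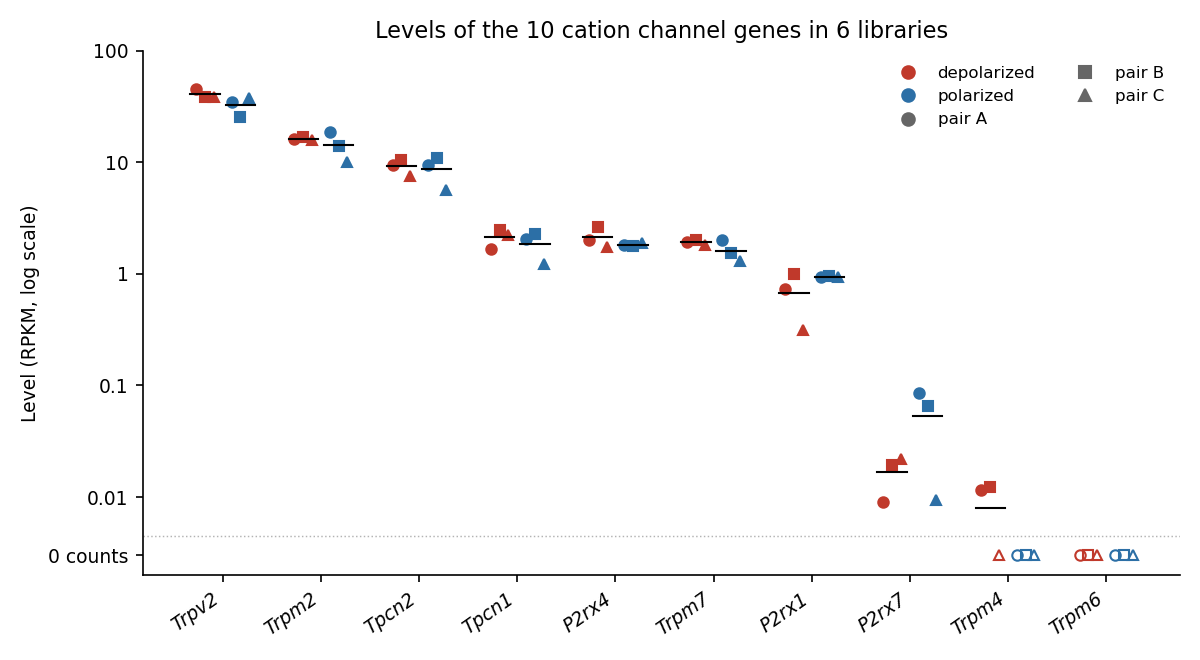
Deposited RPKM (log axis) of the 10 channel genes in each library, ordered by mean, with depolarized libraries in red at the left and polarized libraries in blue at the right of each gene. Symbols mark the pairs, bars are group means over 3 libraries, and open symbols are libraries with 0 counts; Trpv2 and Trpm2 lie highest, and Trpm6 has 0 counts in all 6 libraries.

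The comparison asks whether channel transcripts differed between cells that depolarized and cells that stayed polarized during calcium entry. Of the 10 genes, 7 passed the filter on low counts, and of those 7, 0 were called higher and 0 lower in depolarized cells at an edgeR quasi-likelihood adjusted p under 0.05 with the pairs as a block. The same test called 0.321% of 9971 genes, and a count of 0 among 7 genes lies near that background. None of the 7 had an unadjusted p under 0.05 by edgeR or by DESeq2, which also called 0. Fitted log2 fold changes, depolarized minus polarized, were above 0 for 6 of the 7 with a median of 0.16, against 49.6% above 0 and a median of 0.00 over all genes tested. No member had groups that did not overlap after TMM scaling, as 9.14% of all genes did, and 1 (Trpm7) had the same sign in all 3 pairs, as 25.0% of all genes did. In a sorted population, fewer cells that hold a transcript and less transcript per cell cannot be told apart. A p that misses the threshold does not show that the groups were alike, so the intervals carry what the design allows.

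**Figure D2:**
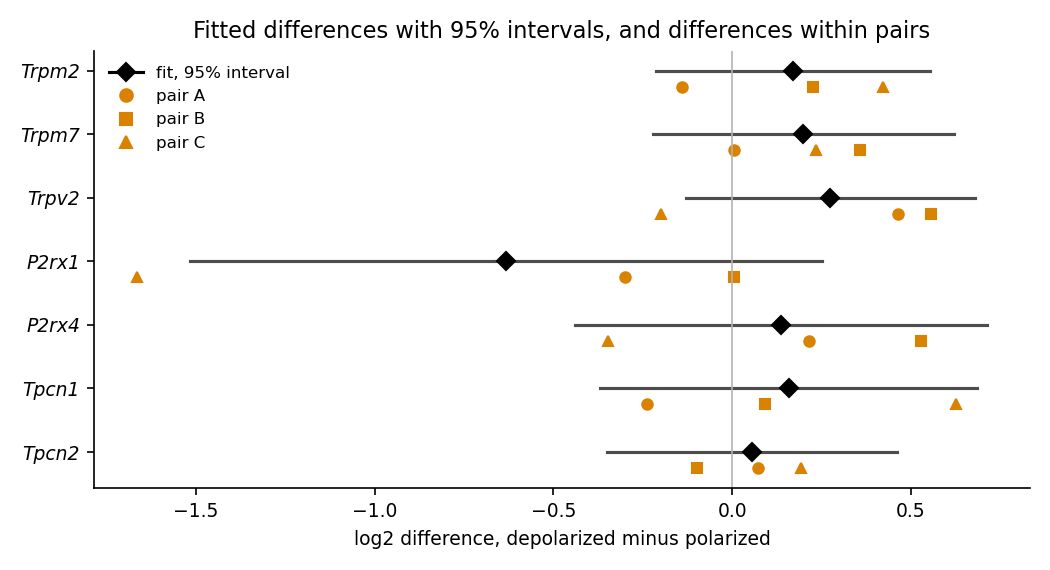
Fitted log2 fold changes (diamonds) with 95% intervals for the 7 tested channel genes, with the difference within each pair below each line; values right of 0 are higher in depolarized cells. Every interval spans 0, and the P2rx1 interval, from -1.52 to 0.25, is the widest.

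Trpm2 (ENSMUSG00000009292, chromosome 10, 77907722 to 77970563, minus strand, GRCm38, 36 exon blocks, 12323 exonic bases) encodes a calcium-permeable channel opened by ADP-ribose and calcium, with an enzyme-like Nudix domain at its end. It was at 206.1, 191.8 and 189.1 TMM-scaled CPM in depolarized libraries A, B and C, against 227.1, 163.8 and 141.0 CPM in the polarized libraries. The depolarized libraries lay close together and inside the range of the polarized ones, which held both the highest and the lowest value. Means were 195.7 ± 9.14 CPM in depolarized and 177 ± 44.6 CPM in polarized cells (SD, n = 3 each), with coefficients of variation of 4.67% in depolarized and 25.1% in polarized cells. The fitted log2 fold change was 0.17 with a standard error of 0.18 and a 95% interval of -0.21 to 0.55 (edgeR adjusted p 1). Within pairs the log2 difference was -0.14, 0.23 and 0.42, so pair A ran opposite to the other pairs. Trpm2 was fitted at 0.04 when pair C was left out, 0.33 when pair A was left out, and 0.18 with the gene length trend of each library removed; the part of the early-stage transcripts in it was not tested.

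Trpm7 (ENSMUSG00000027365, chromosome 2, 126791565 to 126876230, minus strand, 39 exon blocks, 11315 exonic bases) encodes a magnesium- and calcium-permeable channel fused to a kinase. Its level was 22.7, 21.1 and 20.0 TMM-scaled CPM in depolarized libraries A, B and C, against 22.6, 16.5 and 16.9 CPM in the polarized ones. Pair A was level, and the depolarized library was the higher one in pairs B and C. The log2 differences of 0.01, 0.36 and 0.24 were all above 0 after TMM scaling, but pair A was at -0.06 on the deposited CPM scale. The fitted log2 fold change was 0.20 ± 0.20 (SE) with a 95% interval of -0.22 to 0.62 and an edgeR adjusted p of 1.

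Trpm4 and Trpm6 were scarcely detected or not at all. Trpm4 (ENSMUSG00000038260, chromosome 7, 45303155 to 45333780), whose channel is opened by cytosolic calcium and passes sodium and potassium, had 1, 1 and 0 counts in depolarized and 0 counts in each polarized library. Both sums lie under the floor of 3 counts, which is 0.0531 CPM over the depolarized and 0.0536 CPM over the polarized libraries. Trpm6 (ENSMUSG00000024727, chromosome 19, 18749983 to 18892510), the kinase-linked magnesium channel of kidney and gut and the closest relative of Trpm7, had 0 counts in all 6 libraries, which allows a level of up to 0.0267 CPM. No difference was detectable at this depth for either gene, and these limits reflect counting alone, with no correction for PCR copies. Of the kinase-linked pair, Trpm7 alone was detected.

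Trpv2 (ENSMUSG00000018507, chromosome 11, 62574486 to 62600515, plus strand, 14 exon blocks, 4485 exonic bases) encodes a calcium-permeable channel of phagocytes that in other systems responds to heat, stretch and cannabinoids. Depolarized libraries A, B and C held 211.3, 159.7 and 167.7 TMM-scaled CPM, and polarized ones 153.2, 108.6 and 192.4 CPM. The depolarized library was the higher one in pairs A and B and the lower one in pair C, so the groups overlapped. On the deposited CPM scale, which uses library totals alone, the values were 204, 173 and 172 CPM in depolarized and 155, 114 and 168 CPM in polarized libraries, and there the groups did not overlap, as for 10.4% of all genes. The pair C difference thus turned with the scaling, at -0.20 after TMM and 0.03 on deposited CPM, beside 0.46 and 0.56 in pairs A and B after TMM. The fitted log2 fold change of Trpv2 was 0.27 ± 0.19 (SE), or 1.21-fold with a 95% interval of 0.915 to 1.60 (edgeR adjusted p 0.973). Without pair C it was 0.51 and was called (edgeR adjusted p 0.000399), the only call of a member under any alternative run, in a fit on 2 pairs that called 10.1% of 10102 genes.

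**Figure D3:**
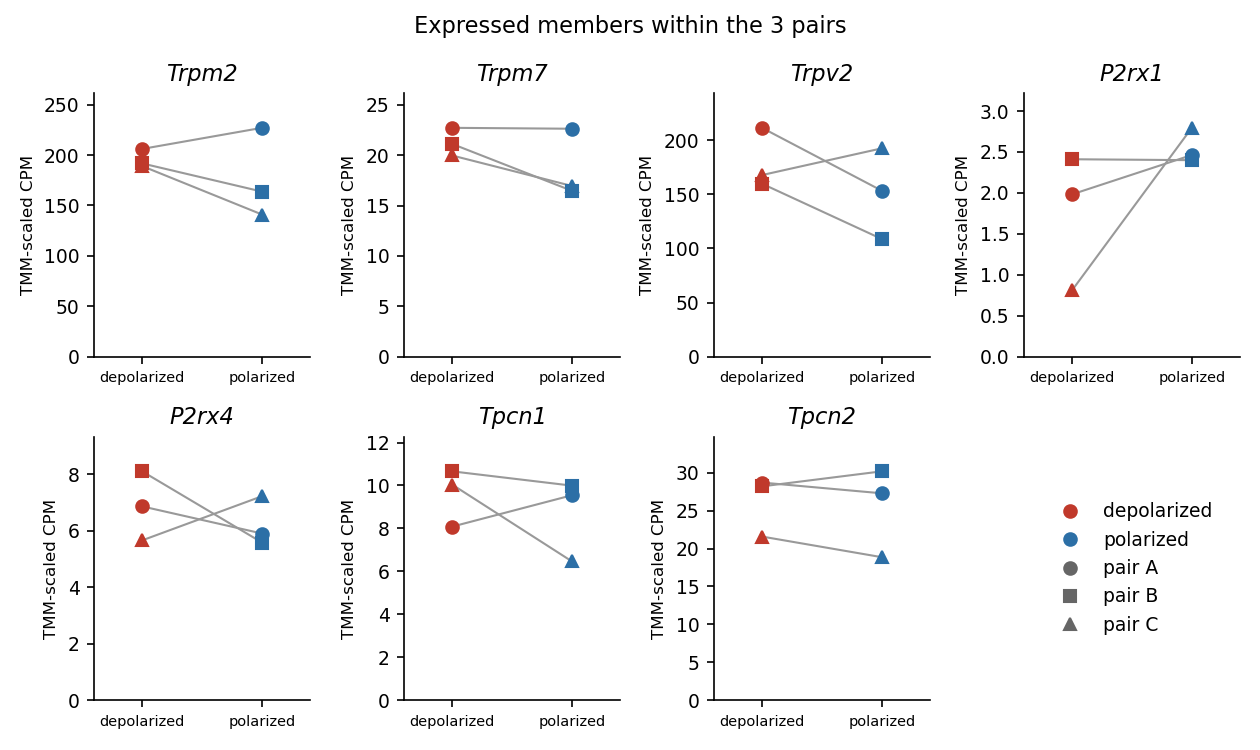
TMM-scaled CPM of the 7 expressed channel genes in depolarized (red, left) and polarized (blue, right) libraries, with lines joining the libraries of a pair; each axis starts at 0. Lines cross or run in opposite directions in most panels, Trpv2 falls from left to right in pairs A and B only, and P2rx1 stands lowest in depolarized library C, at 0.808 CPM.

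P2X receptor transcripts were low in both groups. P2rx4 (ENSMUSG00000029470, chromosome 5, 122707584 to 122729738, plus strand), a receptor found on lysosomes and the cell surface, was at 6.86, 8.10 and 5.66 TMM-scaled CPM in depolarized and 5.90, 5.58 and 7.22 CPM in polarized libraries, in the order A, B, C. It was the higher one in depolarized cells in pairs A and B and the lower one in pair C. The fitted log2 fold change was 0.14 ± 0.27 (SE) with a 95% interval of -0.44 to 0.71 and an edgeR adjusted p of 1, and it turned to -0.06 without pair B.

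P2rx1 (ENSMUSG00000020787, chromosome 11, 72999103 to 73015200, plus strand), a fast-desensitizing receptor best known from platelets and smooth muscle, was the only tested member fitted below 0. It held 39, 50 and 14 counts in depolarized libraries A, B and C, against 48, 43 and 48 counts in the polarized libraries. These are 1.98, 2.41 and 0.808 TMM-scaled CPM in depolarized and 2.46, 2.40 and 2.80 CPM in polarized cells. The polarized libraries lay close together, while the depolarized ones were spread by 1 low library, that of pair C. The fitted log2 fold change was -0.63 ± 0.42 (SE), or 0.645-fold with a 95% interval of 0.350 to 1.19 (edgeR adjusted p 0.962), and moved to -0.15 when pair C was left out and -0.99 when pair B was left out. Of 6 markers of megakaryocytes and platelets, 1 (Itgb3, which neutrophil libraries held at a mean of 29.1 CPM) reached a mean of 1 CPM. None of the 6 was at 0 in all libraries, and their summed level was 25.4 to 33.4 CPM in depolarized and 22.0 to 37.8 CPM in polarized libraries. Nearly all of that was Itgb3, and the other 5 summed to 0.343 to 1.48 CPM in depolarized and 0.939 to 1.22 CPM in polarized libraries. Their part in the P2rx1 values was not tested.

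P2rx7 (ENSMUSG00000029468, chromosome 5, 122643911 to 122691432, plus strand), the receptor that lets extracellular ATP trigger the inflammasome in macrophages, had 1, 2 and 2 counts in depolarized and 9, 6 and 1 counts in polarized libraries, in the order A, B, C. The polarized counts of pairs A and B exceeded all depolarized ones, and pair C did not share this. Pooled, depolarized cells gave 5 counts and polarized cells 16, and their library-scaled ratio was 0.310, with a 95% counting interval of 0.0887 to 0.885 (exact binomial), which covers counting error only and not the spread between libraries. P2rx7 did not pass the filter and has no test. T and NK cell markers, cells known to carry this receptor, had a summed level of 16.7 to 23.9 CPM in depolarized and 23.3 to 30.0 CPM in polarized libraries, with 3 of 8 markers at a mean of 1 CPM or more and none at 0 in all libraries. Most of that sum was Cd3d, a T cell receptor complex gene at 18.2 CPM in depolarized and 17.3 CPM in polarized cells, and most of the gap was Nkg7, a granule gene of cytotoxic cells. Nkg7 was at 0.0491, 0.0521 and 0.710 CPM in depolarized libraries A, B and C, against 2.17, 2.64 and 11.7 CPM in the polarized ones. It was called lower (log2 fold change -4.65, edgeR adjusted p 3.21e-05). The early-stage neutrophil marker Ms4a3 was at 0.294, 0.0521 and 0.710 CPM in depolarized and 3.26, 10.2 and 14.2 CPM in polarized libraries. Mpo, Elane, Prtn3, Ctsg, Fcnb and Ltf of that list also rose from polarized A to B to C. Camp, Ngp and Cebpe were instead highest in polarized B. Which cells held Nkg7 was not tested. Without Cd3d and Nkg7 the other T and NK markers summed to 1.82 to 3.19 CPM in depolarized and 2.82 to 4.04 CPM in polarized libraries, ranges that overlap.

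Monocyte and macrophage markers summed to 271 to 318 CPM in depolarized and 203 to 234 CPM in polarized libraries, with 5 of 10 at a mean of 1 CPM or more and none at 0 in all libraries. Csf1r and Adgre1 carried this sum, and most other markers ran the opposite way. Of 9 monocyte and macrophage markers tested, 2 (Csf1r and Adgre1) were fitted above 0 and 7 below, and 0 were called. Without Csf1r and Adgre1 the list summed to 7.30 to 20.3 CPM in depolarized and 18.7 to 45.9 CPM in polarized libraries, ranges that overlap slightly. B and plasma cell markers summed to 482 to 1227 CPM in depolarized and 534 to 626 CPM in polarized libraries. Of 7 tested, 2 were fitted above 0, 5 below, and 0 were called. Eosinophil markers summed to 44.7 to 168 CPM in depolarized and 37.2 to 433 CPM in polarized libraries. Of 5 tested, 2 were fitted above 0, 3 below, and 0 were called. Whether any of these cells gave the P2rx7 counts was not tested.

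The TPC channels of endosomes and lysosomes were both expressed. Tpcn2 (ENSMUSG00000048677, chromosome 7, 145253923 to 145283927, minus strand, 2909 exonic bases), found mainly on late endosomes and lysosomes, held 28.7, 28.2 and 21.6 TMM-scaled CPM in depolarized and 27.3, 30.2 and 18.9 CPM in polarized libraries A, B and C. Pair C was low in both groups, and the pairs differed among themselves by more than the groups did. The fitted log2 fold change of 0.06 ± 0.19 (SE) had a 95% interval of -0.35 to 0.46 (edgeR adjusted p 1), which for a member near 0 still allows 1.38-fold. Tpcn1 (ENSMUSG00000032741, chromosome 5, 120534160 to 120588613, minus strand, 4645 exonic bases), found on a wider range of endosomes, held 8.08, 10.7 and 10.04 TMM-scaled CPM in depolarized and 9.54, 9.99 and 6.46 CPM in polarized libraries. Its pairs disagreed, at -0.24 in pair A, 0.09 in pair B and 0.63 in pair C (log2). The fitted log2 fold change of Tpcn1 was 0.16 ± 0.25 (SE, 95% interval -0.37 to 0.69, edgeR adjusted p 1). Without pair C, Tpcn1 was fitted at -0.07 and Tpcn2 at -0.01. Tpcn2 was above Tpcn1 per length in 6 of 6 libraries, with 9.21 ± 1.47 RPKM in depolarized and 8.69 ± 2.71 RPKM in polarized cells while Tpcn1 had 2.13 ± 0.408 RPKM in depolarized and 1.85 ± 0.556 RPKM in polarized cells.

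Polarized library C was the lowest of the 6 for 3 of the 7 expressed channel genes (Trpm2, Tpcn1 and Tpcn2). It was the highest for P2rx1 and within the upper range for Trpv2 and P2rx4, so the members did not move together in it. Their median log2 difference was 0.01 in pair A (4 of 7 above 0), 0.23 in pair B (6 of 7) and 0.19 in pair C (4 of 7). Of the members, Trpm2 and Trpm7 are among the 2493 longest genes, over which this library was low, and the part of length in their values is limited to the refits without the length trend, which gave 0.18 for Trpm2 and 0.21 for Trpm7.

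The rest of these channel families was scarcely detected. Of 23 other TRP, polycystin and mucolipin channel genes, 19 had 3 counts or fewer over all 6 libraries and 2 reached a mean of 1 CPM. The exceptions were Pkd2l2, a polycystin-related gene, at 2.65 ± 0.283 TMM-scaled CPM in depolarized and 2.07 ± 0.484 CPM in polarized cells, and Mcoln1, the lysosomal mucolipin calcium channel gene, at 1.29 ± 0.552 CPM in depolarized and 1.78 ± 0.691 CPM in polarized cells (SD, n = 3 each). Mcoln1 was below 0 in all 3 pairs with a log2 fold change of -0.47 ± 0.42 (SE, edgeR adjusted p 1), where 25.0% of all genes kept 1 sign. All 4 other P2X genes, P2rx2, P2rx3, P2rx5 and P2rx6, had 3 counts or fewer over 6 libraries. Neither tested gene was called by edgeR or DESeq2 or had an unadjusted p under 0.05, and the median log2 fold change of the pair was -0.05.

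Enzymes and transporters that set extracellular ATP, the P2X ligand, gave no call. Of 13 genes, 6 were tested, 0 were called higher and 0 lower by edgeR or DESeq2, and the median log2 fold change was 0.25. An unadjusted edgeR p under 0.05 was found for 2 of the 6, and for 6.58% of all 9971 genes tested. Entpd1, the surface ATP-degrading enzyme CD39, was abundant at 332 ± 54.0 TMM-scaled CPM in depolarized and 254 ± 51.4 CPM in polarized cells and above 0 in all 3 pairs, with a log2 fold change of 0.40 ± 0.17 (SE, edgeR adjusted p 0.708). Nt5e, the AMP-degrading enzyme CD73, was at 50.7 ± 17.7 CPM in depolarized and 66.4 ± 20.1 CPM in polarized cells, with a log2 fold change of -0.40 and an edgeR adjusted p of 0.770. Slc17a9, the vesicular nucleotide transporter, stood at 10.8 ± 3.40 CPM in depolarized and 17.5 ± 6.14 CPM in polarized cells. Its difference was below 0 in all 3 pairs, with a log2 fold change of -0.69 ± 0.23 (SE, edgeR adjusted p 0.404). Over all genes, 25.0% had the same sign in all 3 pairs. The pannexin Panx1, an ATP release channel, was at 0.560 ± 0.502 CPM in depolarized and 0.343 ± 0.202 CPM in polarized cells.

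Genes of the internal ligands of Trpm2 and the TPC channels also gave no call. In the list for ADP-ribose and NAADP, 10 of 12 genes were tested, 0 were called by edgeR or DESeq2, 1 had an unadjusted edgeR p under 0.05 (Jpt2, an NAADP-binding protein gene; 6.58% over all genes), and the median was -0.05. Nampt, which makes the NAD precursor, was at 241 ± 12.0 TMM-scaled CPM in depolarized and 248 ± 25.8 CPM in polarized cells, and the ADP-ribosyl cyclase relative Bst1 at 194 ± 14.7 CPM in depolarized and 201 ± 43.8 CPM in polarized cells. The NAADP-binding protein gene Lsm12 was at 27.7 ± 0.629 CPM in depolarized and 29.2 ± 4.04 CPM in polarized cells. Cd38, the main ADP-ribosyl cyclase of other leukocytes, was scarce, at 0.486 ± 0.332 CPM in depolarized and 1.02 ± 0.357 CPM in polarized cells. Its difference lay below 0 in all 3 pairs (log2 fold change -1.14 ± 0.59, SE, edgeR adjusted p 0.824), where 25.0% of all genes kept 1 sign. For the lipid PI(3,5)P2, which opens TPC channels, and for their partners, 9 of 9 genes were tested and 0 were called by either tool, 0 had an unadjusted p under 0.05 by either, and the median was -0.05. The most abundant were the late endosome GTPase gene Rab7 at 264 ± 8.42 CPM in depolarized and 276 ± 39.2 CPM in polarized cells, the kinase gene Lrrk2 at 88.6 ± 8.47 CPM in depolarized and 113 ± 25.4 CPM in polarized cells, and Pikfyve, which makes the lipid, at 22.2 ± 1.89 CPM in depolarized and 23.7 ± 7.41 CPM in polarized cells.

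The inflammasome genes downstream of P2rx7 were well expressed although P2rx7 was not. All 6 were tested, 0 were called by edgeR or DESeq2, 2 had an unadjusted edgeR p under 0.05 (6.58% over all genes), and the median log2 fold change was 0.00. The cytokine gene Il1b was at 994 ± 97.6 TMM-scaled CPM in depolarized and 667 ± 100 CPM in polarized cells and above 0 in all 3 pairs (log2 fold change 0.58 ± 0.18, SE, edgeR adjusted p 0.317). The sensor gene Nlrp3 was at 107 ± 28.9 CPM in depolarized and 80.3 ± 24.5 CPM in polarized cells, also above 0 in all 3 pairs (log2 fold change 0.43 ± 0.17, SE, edgeR adjusted p 0.603). The pore-forming gasdermin gene Gsdmd was at 91.0 ± 4.05 CPM in depolarized and 86.8 ± 5.68 CPM in polarized cells. Pycard, Casp1 and Nek7 were fitted below 0, at log2 fold changes of -0.43, -0.29 and -0.07. Over all genes, 25.0% had the same sign in all 3 pairs.

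**Figure D4:**
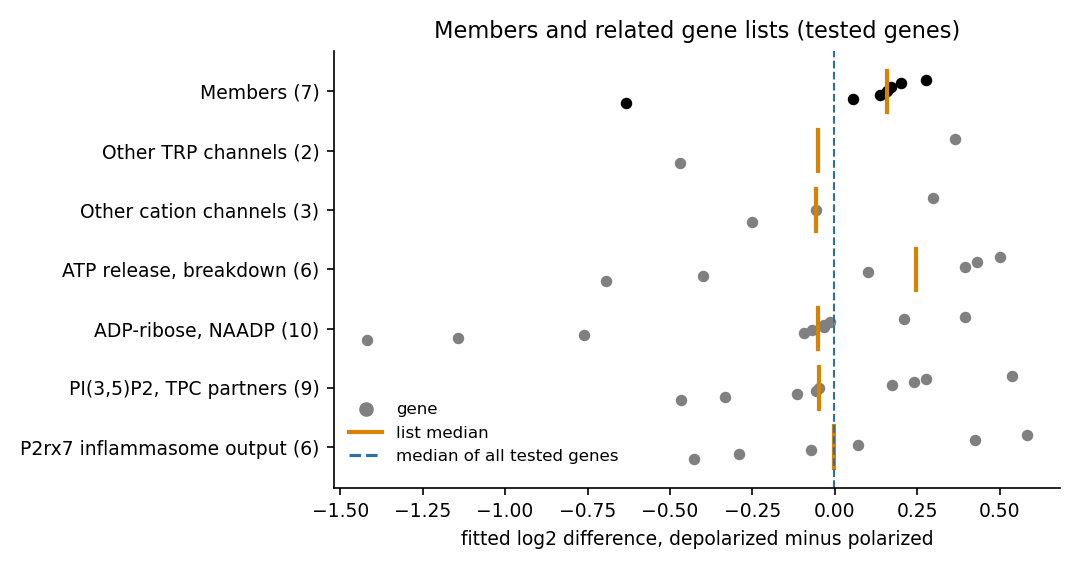
Fitted log2 fold changes, depolarized minus polarized, of the tested channel genes (black, top) and of tested genes of 6 related lists (grey), with the number of tested genes after each name. Orange bars are list medians and the dashed line is the median of all genes tested; 6 of 7 channel genes lie right of it, and no gene shown was called.

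Profiles most like those of single members were sought among genes with a mean log2 CPM of 3 or more, by the root mean square difference of centred log2 CPM over the 6 libraries. For Trpm2, the member with the highest mean CPM, the nearest of 5178 genes were Prpf38b, a splicing factor gene, Dmtf1, a transcription factor gene, and Mzt1, a spindle component gene, with differences of 0.0511, 0.0526 and 0.0555 against a median of 0.315 over all genes compared. For P2rx1, the member fitted farthest from 0, the nearest of 5179 were C1rl, a complement-related protease gene, the chromatin remodeller subunit gene Smarcb1 and 4930438A08Rik, with differences of 0.149, 0.196 and 0.208 against a median of 0.60. With 6 libraries and so many genes, close profiles are a description of these libraries only.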

How the data were processed

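Per the labels, RNA was isolated from cells sorted into lysis buffer and made into cDNA with the Clontech SMARTer Ultra-Low kit. Per the submitters' processing notes, bcl2fastq, STAR (2.0.4b), Subread and featureCounts (1.45) were used with build GRCm38; the strand setting, the handling of multi-mapping reads and the annotation used: not given in the sources used here. For every gene the deposited tables list raw counts beside CPM and RPKM. The deposited CPM values are counts scaled to the library total (recomputed within 4.8e-10), and the deposited RPKM values are CPM per kilobase of the listed length (within 7e-10). No row without a gene was present. Symbols came from the reference table (40254 of 41388 genes), and coordinates from the files. Members shared under 3% of their exon length with any other gene.

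Counts were tested in R 4.3.3 with edgeR 4.0.16 (filterByExpr, TMM, quasi-likelihood F test, Benjamini-Hochberg adjustment over 9971 genes holding 99.9% of counts), with the replicate code as a block, since the design text names replicate pairs, leaving 2 residual degrees of freedom. Standard errors are the log2 fold change over the square root of F, and intervals use the moderated degrees of freedom (16.7). Pair differences use log2 CPM with a prior count of 2. Deviations from group means correlated across genes at 0.0751, 0.27 and 0.0326 within pairs A, B and C. The script was tested on simulated data. Nothing says that the animals of the pairs were pooled or single, so p-values measure the spread between these libraries. That spread is not each gene's own alone, since the test moderates it with that of the other tested genes. Alternatives were no block, RLE factors, DESeq2 1.42.0, robust edgeR, other filters and leaving out each pair; removal of a gene length trend, omission of TMM and pair differences on deposited CPM were chosen after seeing the data. Members and lists were chosen with earlier results of these data known. Genes were named by rule: every member, the most abundant or called genes of each list, and the 3 closest profiles of 2 members. Cd38, Jpt2, Panx1, Piezo1, Itgb3, Cd3d, Nkg7, Ctsg, Csf1r, Adgre1, Mpo, Pycard, Casp1 and Nek7 were named after their values were seen. The same holds for Elane, Prtn3, Ms4a3, Fcnb, Ngp, Ltf, Camp and Cebpe. One depolarized library (pair B) has run label 1 and the others run label 2, and the sources used here do not explain it, so it was not used as a batch.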

Additional observations from a re-analysis of the deposited data

How the results depend on the processing

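With all 3 pairs, 8 genes were called higher and 24 lower in depolarized cells. The higher and lower counts were 0 and 0 with no replicate block (511 genes at an unadjusted p under 0.05, against 656 in paired form), 0 and 6 without TMM factors, 50 and 96 with no filter on low counts, 5 and 3 with a filter of 1 CPM in each library, 0 and 8 with the gene length trend removed, and 16 and 23 with DESeq2. Leaving out 1 pair gave 9 to 500 genes higher and 36 to 518 lower. Members called stayed at 0 under these settings, except 1 (Trpv2) without pair C, so leaving out 1 pair gave 0 to 1. The number of expressed members was 7, and 6 both at a mean of 1 RPKM and at 1 CPM in each library, where P2rx1 dropped out. Of the refits of single members, 72 kept direction and call, 1 gained a call and 3 turned in sign. Those 3 were P2rx4 without pair B (-0.064, up to 0.38 without another pair), Tpcn1 without pair C (-0.071, up to 0.36) and Tpcn2 without pair C (-0.013, up to 0.13). Dropping the replicate block changed no call of a member (Trpm2 0.14, against 0.17 with it). The cause of these shifts was not tested. Trpm4, Trpm6 and P2rx7 had 21 counts or fewer over all libraries and have no test.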

Other observations

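Other non-selective cation channels outside the TRP, P2X and TPC families were also sparse. Of 21 genes, 3 reached a mean of 1 CPM and were tested, 12 had 3 counts or fewer over 6 libraries, 0 were called by edgeR or DESeq2 in either direction, and 0 had an unadjusted p under 0.05 by either tool. Tmem63a, a stretch-activated channel gene, was at 26.0 ± 5.99 TMM-scaled CPM in depolarized and 30.5 ± 3.23 CPM in polarized cells (SD, n = 3 each), fitted at a log2 fold change of -0.25 ± 0.20 (SE, edgeR adjusted p 1). Tmem175, a lysosomal potassium and proton channel gene, was at 16.9 ± 3.45 CPM in depolarized and 13.6 ± 1.03 CPM in polarized cells, fitted at a log2 fold change of 0.30 ± 0.22 (SE, edgeR adjusted p 1). Tmem63b was at 2.30 ± 0.214 CPM in depolarized and 2.41 ± 0.532 CPM in polarized cells. The stretch-activated channel gene Piezo1 stayed under 0.5 deposited CPM in each library.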
